A study of Rattus norvegicus with 12 samples.

Results

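The genes described are 10 genes of oxygen sensing and vessel growth: the growth factors Vegfa, Vegfb and Vegfc, the receptors Kdr and Flt1, the transcription factor subunits Hif1a and Epas1, and Egln3, Adm and Angpt2. They were taken by symbol, through every probe set that the array annotation pairs with exactly 1 of these symbols, which gave 15 probe sets of the 31042 tested. Rat heart tissue was profiled on 12 arrays, 1 per heart, from 6 failing and 6 control hearts, given as biological replicates. By its title the study is about the spontaneously hypertensive rat, an inbred strain with high blood pressure, and its passage from compensated hypertrophy to systolic failure. The strain, age and sex of the control animals, the age of the failing ones and the part of the heart sampled are not stated in these sources, and no drug is named for either group. Hearts given captopril, also named in the extraction protocol, are not analysed here.

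The cells of a tissue sense oxygen through prolyl hydroxylases such as the product of Egln3, which mark the HIF alpha proteins (Hif1a and Epas1, also called HIF-2 alpha) for destruction while oxygen is present. When oxygen falls, the alpha subunits persist, pair with the product of Arnt, and switch on genes such as Vegfa, Adm and Egln3 itself. VEGF-A drives the growth of blood vessels mainly through the receptor KDR (VEGFR2), while FLT1 (VEGFR1) binds VEGF-A and VEGF-B and can act as a decoy. VEGF-C acts mainly on lymphatic vessels through FLT4, and angiopoietin 2 (Angpt2) loosens vessels for remodelling by opposing the receptor TEK. Since HIF alpha levels are set largely by protein breakdown, mRNA measures only a part of this pathway.

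The windows below, from 250 bases before to 50 after the annotated gene start, belong to the 3 genes whose failing and control hearts did not overlap (Hif1a, Vegfc, Egln3) and to Vegfb, the gene with the largest negative estimate. The sequences are those of RefSeq on assembly GRCr8, read 5′ to 3′ on the strand of the gene, and capitals mark the core of the HIF response element, ACGTG or GCGTG on either strand.
Hif1a (chr6:98359648-98359947, plus strand): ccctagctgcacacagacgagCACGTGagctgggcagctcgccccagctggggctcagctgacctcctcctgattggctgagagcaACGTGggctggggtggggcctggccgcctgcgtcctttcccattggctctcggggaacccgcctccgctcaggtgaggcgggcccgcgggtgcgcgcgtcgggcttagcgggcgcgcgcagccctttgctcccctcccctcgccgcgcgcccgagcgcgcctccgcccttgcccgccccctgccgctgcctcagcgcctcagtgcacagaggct
Vegfc (chr16:44560838-44561137, minus strand): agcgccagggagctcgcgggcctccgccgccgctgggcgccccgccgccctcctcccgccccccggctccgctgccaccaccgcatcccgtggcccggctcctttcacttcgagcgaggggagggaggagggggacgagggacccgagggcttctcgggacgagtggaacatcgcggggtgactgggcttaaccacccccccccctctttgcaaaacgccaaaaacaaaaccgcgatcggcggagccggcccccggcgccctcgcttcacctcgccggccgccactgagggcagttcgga
Egln3 (chr6:77410966-77411265, minus strand): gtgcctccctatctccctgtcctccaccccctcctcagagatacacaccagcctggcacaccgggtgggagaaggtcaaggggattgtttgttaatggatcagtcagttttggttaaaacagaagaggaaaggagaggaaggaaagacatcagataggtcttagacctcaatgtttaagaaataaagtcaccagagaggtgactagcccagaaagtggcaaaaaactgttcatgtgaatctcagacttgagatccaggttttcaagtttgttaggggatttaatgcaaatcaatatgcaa
Vegfb (chr1:213607103-213607402, minus strand): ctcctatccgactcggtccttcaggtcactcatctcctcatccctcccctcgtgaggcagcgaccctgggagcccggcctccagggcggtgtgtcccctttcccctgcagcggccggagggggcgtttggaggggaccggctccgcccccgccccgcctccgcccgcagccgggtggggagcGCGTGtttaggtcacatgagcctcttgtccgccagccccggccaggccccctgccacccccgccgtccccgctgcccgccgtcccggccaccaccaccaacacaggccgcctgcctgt
The Hif1a window holds 2 stretches with the core, 1 of them CACGTG, which reads as ACGTG on both strands and is also the E-box of basic helix-loop-helix factors. The Vegfb window holds 1, and the Vegfc and Egln3 windows hold none. Of the 9 member genes with a window in the RefSeq table, 4 had a core, the other two being Kdr with 2 and Flt1 with 1. Among 33469 windows of the same length 41.6% held a core. A match is a stretch of letters and not a measured binding site, and a window without one says nothing of sites elsewhere.

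When limma was run over all 31042 probe sets, no member reached an adjusted p under 0.05, as 0 probe sets did in either direction (0%), while 4495 (14.5%) had an unadjusted p under 0.05. The exact rank-sum permutation test also gave 0, a count that says little, as its smallest p with 6 against 6 hearts, 0.00216, became an adjusted p of 0.142 over all probe sets even for members whose groups did not overlap. A second fit was confined to the brighter probe sets, the 15521 whose mean over the 12 arrays lay at or above the median of 6.94 (log2 intensity). There limma called 429 higher and 230 lower in failing hearts (4.25% of those tested), but 0 of the 14 member probe sets it held. These whole-array counts depended on single hearts, from 20 higher and 4 lower without control replicate 6 to 1035 higher and 1048 lower without control replicate 4, a heart whose first principal component score over the brighter probe sets (-13.5) lay among those of the failing hearts (-40.3 to 7.2) and away from the other controls (20.4 to 39.2). In the fit over all probe sets, 6 of the 15 member probe sets had an unadjusted p under 0.05, 3 higher and 3 lower, against 7.25% higher and 7.23% lower over all. Brighter probe sets, which 14 of the 15 are, passed that limit more often, 3901 of 15521 in their own fit. In 3 of the 15, Hif1a, Vegfc and Egln3, all failing hearts lay on one side of all control hearts, which was so for 1.52% of all probe sets and for 2.62% of the brighter ones. In the leading probe sets, the brightest of each gene, the members differed by 1.55-fold or less, with 6 of 10 estimates above 0 and a median of 0.15 (log2), against -0.03 over 14217 genes. Because whole tissue was measured, fewer cells of a type and less RNA per cell cannot be told apart. The heart markers fixed for cardiomyocytes were all bright, the dimmest of the 10 being Ryr2 at a mean of 14.12 (log2 intensity).

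**Figure D1:**
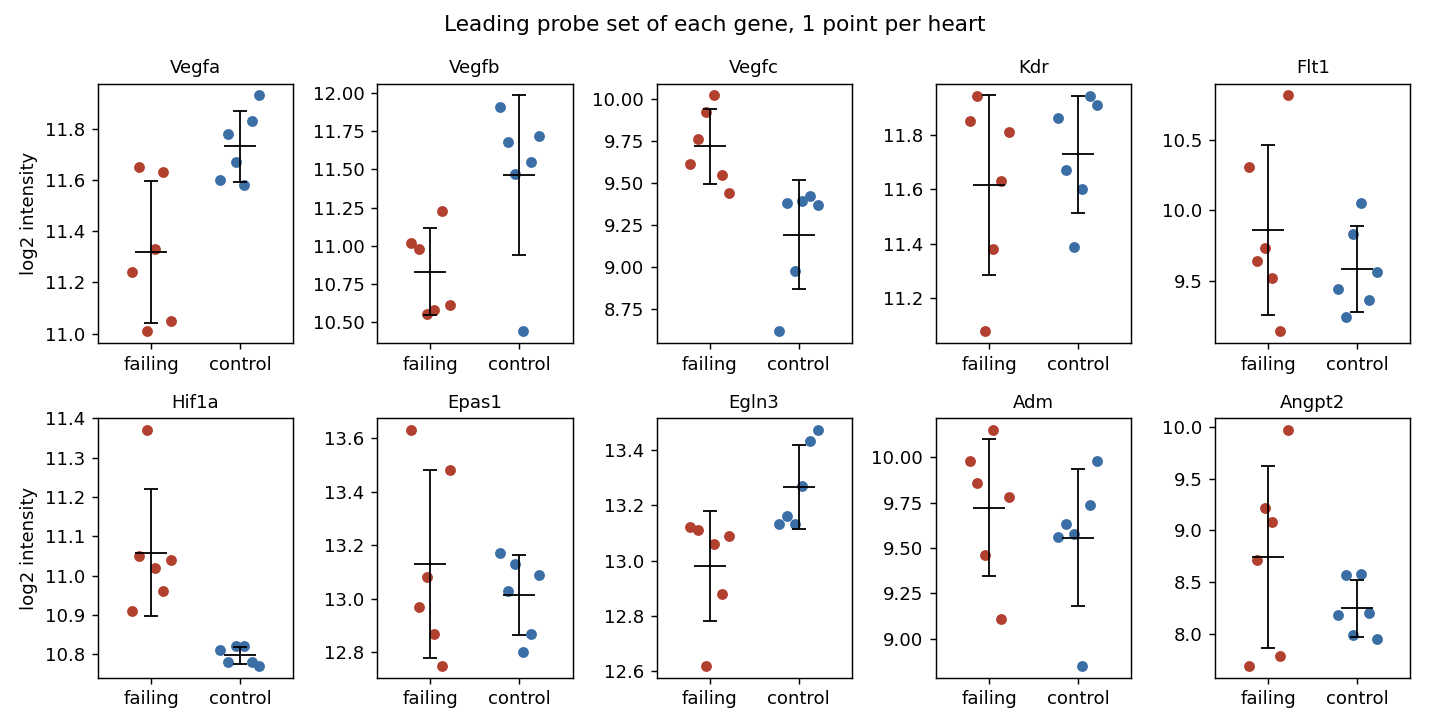
Log2 intensity of the leading probe set of each of the 10 genes, with 1 point per heart (failing left, control right), the mean as a bar and the SD as whiskers. The groups are apart for Vegfc, Hif1a and Egln3, and 1 control heart at 10.44 lies below all failing hearts for Vegfb.

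The estimates of the 3 ligands differed in sign. Vegfb, whose product is linked to fatty acid handling and to the survival of heart muscle cells and their vessels, had the largest difference of the leading probe sets. Its log2 intensities were 11.02, 10.98, 10.55, 10.58, 11.23 and 10.61 in failing hearts 1 to 6, against 11.91, 11.68, 11.47, 10.44, 11.55 and 11.72 in control hearts 1 to 6. All failing hearts thus lay below 5 of the control hearts and above the remaining one, control replicate 4. The log2 fold change was -0.63 ± 0.24 (SE, 95% interval -1.16 to -0.11, n = 6 per group), 1.55-fold lower in failing hearts, with a limma adjusted p of 0.264 over all and 0.103 over the brighter probe sets. Without control replicate 4 it was -0.84, with an adjusted p of 0.00965 over the brighter probe sets, the smallest adjusted p of any member with 1 heart left out. With any other heart left out Vegfb did not pass there, the limma adjusted p running from 0.0662 to 0.205.

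Vegfc pointed the other way. Its log2 intensities were 9.61, 9.76, 9.92, 10.02, 9.55 and 9.44 in failing hearts, against 8.62, 9.38, 8.98, 9.39, 9.42 and 9.37 in control hearts. Every failing heart exceeded every control heart, but failing replicate 6 (9.44) and control replicate 5 (9.42) were nearly level. The difference was 0.52 ± 0.17 (log2, 95% interval 0.15 to 0.90), or 1.44-fold. Control replicates 1 and 3 were the lowest hearts, and the difference was 0.41 without the former and 0.48 without the latter. Its limma adjusted p of 0.206 over all and 0.0692 over the brighter probe sets was the lowest of the members, and it was 0.0428 over the brighter probe sets without control replicate 4. With any other heart left out Vegfc did not pass there (limma adjusted p of 0.0565 to 0.146).

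Vegfa was read by 2 probe sets that gave different results. The brighter one, 1373807_at, had 11.24, 11.65, 11.01, 11.33, 11.63 and 11.05 in failing hearts, against 11.60, 11.78, 11.67, 11.58, 11.83 and 11.93 in control hearts (log2 intensity). Failing replicates 2 and 5 lay within the control range, and the other 4 lay below all control hearts. The difference of -0.41 ± 0.14 (95% interval -0.73 to -0.10) had a limma adjusted p of 0.232 over all and 0.0836 over the brighter probe sets, and 0.0429 over the brighter ones without failing replicate 5. With any other heart left out this probe set did not pass there (limma adjusted p of 0.0526 to 0.174). The second probe set, 1370081_a_at, averaged 10.29 ± 0.32 in failing and 10.36 ± 0.37 in control hearts (SD, n = 6), and its 95% interval ran from -0.51 to 0.37. Which transcripts each of them reads is not given in the sources used here.

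**Figure D2:**
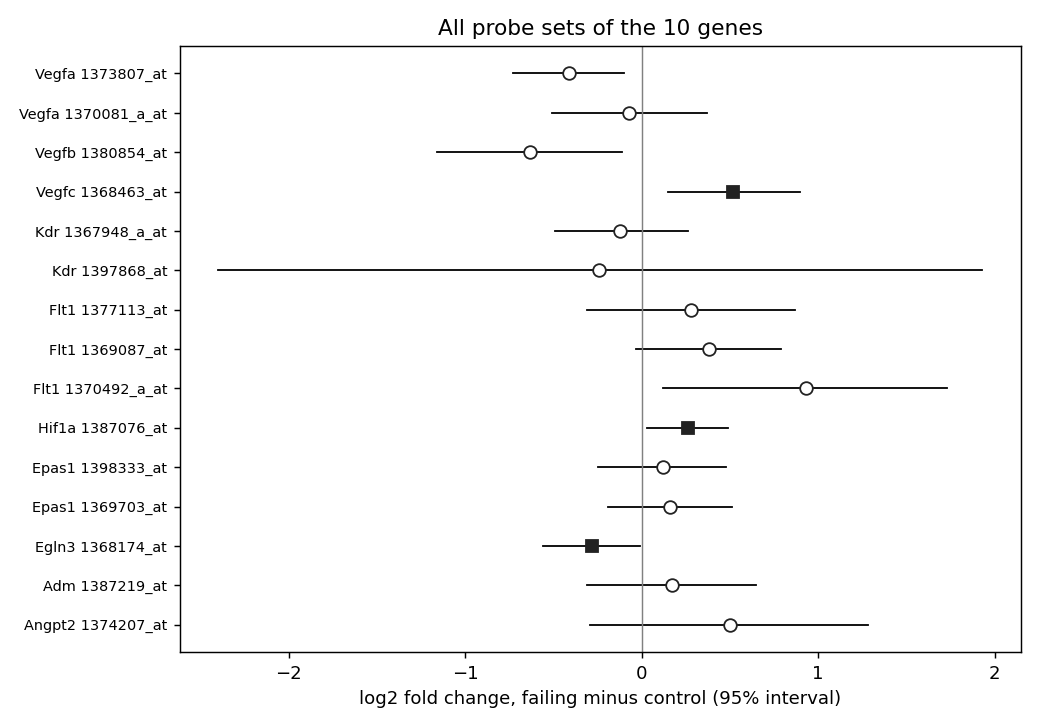
Log2 fold change, failing minus control, of all 15 probe sets with the 95% interval of the limma fit over all probe sets; filled squares mark the 3 whose groups do not overlap. Intervals of 6 probe sets exclude 0 before adjustment, and the dim Kdr probe set 1397868_at has the widest, from -2.40 to 1.93.

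Of the receptors, Kdr had a difference smaller than the SD of either group. Its leading probe set averaged 11.61 ± 0.33 in failing and 11.73 ± 0.22 in control hearts (log2 intensity, SD), and the interval of the difference (-0.49 to 0.26) runs from a 1.40-fold lower to a 1.20-fold higher level in failing hearts. Failing replicates 3 and 4 were the lowest hearts of all for Kdr, at 11.08 and 11.38. The second Kdr probe set was the only dim member and ran from 1.63 to 6.05 in failing and from 1.49 to 5.89 in control hearts, a scatter that carries no usable comparison.

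Flt1 had 3 probe sets, all with positive estimates, of 0.28 ± 0.27, 0.38 ± 0.19 and 0.93 ± 0.37 (log2, SE) from the brightest to the dimmest. The dimmest, 1370492_a_at, had 8.54, 8.11, 8.32, 8.45, 7.77 and 9.38 in failing hearts, against 7.40, 6.27, 7.48, 8.71, 7.65 and 7.51 in control hearts. All failing hearts exceeded all control hearts but control replicate 4, which was higher than 5 of them. Its limma adjusted p was 0.281 over all and 0.115 over the brighter probe sets, and 0.0239 over the brighter ones without control replicate 4, where the groups no longer overlapped. With any other heart left out this probe set did not pass there (limma adjusted p up to 0.217). In the brightest Flt1 probe set, 1377113_at, failing replicates 6 and 1 stood at 10.82 and 10.31 and the other failing hearts at 9.14 to 9.73, within or below the control range of 9.24 to 10.05.

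Epas1, whose product is the HIF alpha subunit most prominent in endothelial cells, showed the same 2 hearts on top. Its leading probe set had 13.63 in failing replicate 1 and 13.48 in failing replicate 6, while the other 4 failing hearts ran from 12.75 to 13.08, against 12.80 to 13.17 in control hearts. The group difference was 0.12 ± 0.17 (95% interval -0.25 to 0.48), and that of the second probe set was 0.16 ± 0.16, so neither exceeded the spread between hearts. With array weights the leading estimate was -0.01, below 0.

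**Figure D3:**
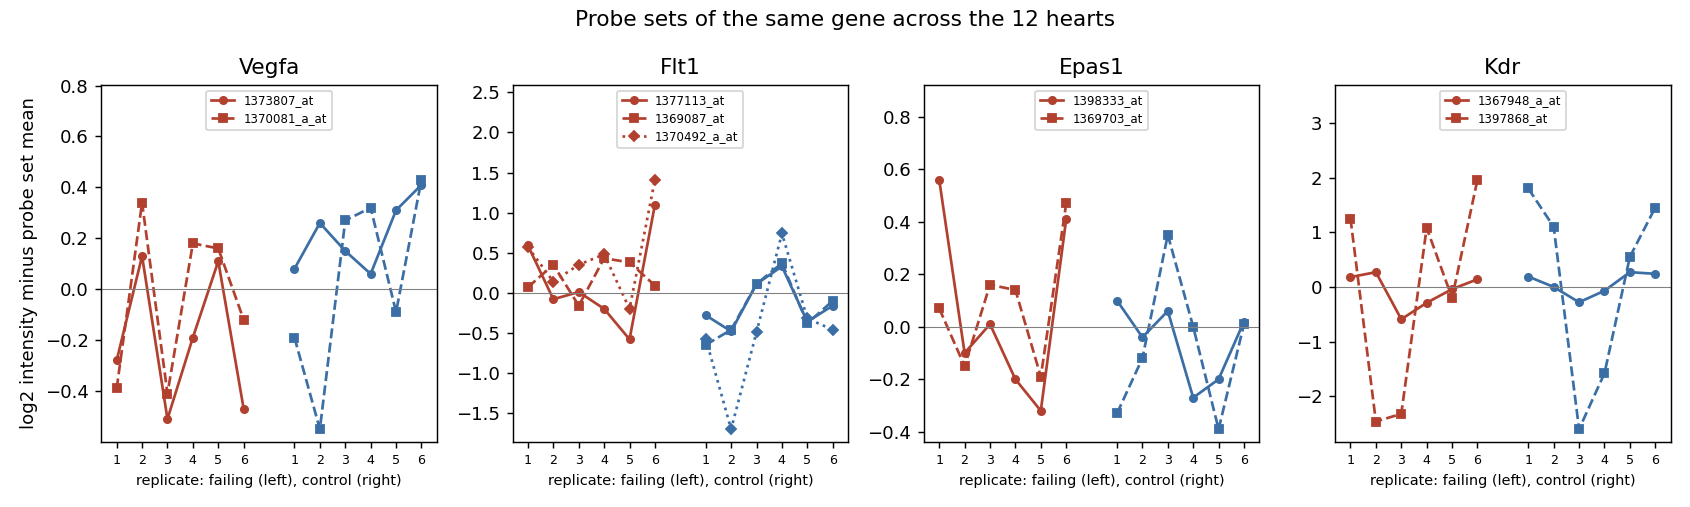
Log2 intensity of each probe set of Vegfa, Flt1, Epas1 and Kdr minus that probe set's mean over the 12 hearts, by replicate number (failing left, control right). Failing replicates 1 and 6 stand out in the leading probe sets of Flt1 and Epas1, and the 2 Vegfa probe sets part most in control replicates 2 and 5.

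Hif1a had the tightest control group of the members. Its log2 intensities were 10.91, 11.05, 11.37, 11.02, 10.96 and 11.04 in failing hearts, against 10.81, 10.78, 10.82, 10.82, 10.78 and 10.77 in control hearts. The control hearts thus spanned 10.77 to 10.82, and each failing heart lay above them, failing replicate 3 by the most. The difference was small, 0.26 ± 0.10 (log2, 95% interval 0.03 to 0.49), or 1.20-fold, and did not pass (limma adjusted p = 0.284 over all and 0.118 over the brighter probe sets). After median centring and after quantile normalization the groups stayed apart, Hif1a being the one member of the 3 for which the latter held. Its leaving-out estimates ran from 0.20 to 0.29, with adjusted p from 0.0883 to 0.23 over the brighter probe sets.

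Egln3, a hydroxylase that heart muscle expresses strongly and that HIF induces, lay lower in every failing heart. It had 13.12, 13.11, 12.62, 13.06, 12.88 and 13.09 in failing hearts, against 13.13, 13.16, 13.13, 13.27, 13.43 and 13.47 in control hearts (log2 intensity). The groups touched, with 3 hearts of the failing group within 0.05 of the lowest control hearts, and they overlapped after quantile normalization or median centring. The difference of -0.28 ± 0.13 (95% interval -0.56 to -0.01) is 1.22-fold lower and did not pass (limma adjusted p = 0.331 over all and 0.15 over the brighter probe sets). Adm, the gene of the vasodilator peptide adrenomedullin, averaged 9.73 ± 0.38 in failing and 9.56 ± 0.38 in control hearts, a difference within the spread (95% interval -0.31 to 0.65), with control replicate 4 the lowest heart at 8.85. Angpt2 had the widest spread among failing hearts of the leading probe sets, at 7.69, 8.71, 9.22, 9.08, 7.79 and 9.97, against 8.18, 8.57, 7.99, 8.58, 8.20 and 7.95 in control hearts. Failing replicates 1 and 5 lay below every control heart and the other 4 above every one, so that the mean difference of 0.50 ± 0.36 (95% interval -0.29 to 1.28) covers hearts that differed in direction. Replicate 1, which was high for Flt1 and Epas1, was thus the lowest heart for Angpt2, whereas replicate 6 was the highest for Angpt2 and for the leading Flt1 probe set.

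Other genes of the pathway were read through lists, 1 leading probe set per gene, against a background of 2.83% of brighter genes called higher and 1.63% called lower (9409 genes). At an unadjusted p under 0.05 the background, for these and the cell type lists below, was 1182 higher and 1215 lower among 14217 genes. The 11 list genes called below all held their call without failing replicate 5 and without control replicate 4, and all lost it when failing replicate 3, 4 or 6, or else control replicate 1 or 6, was left out alone, so the adjusted p without a heart is given beside each. Of the HIF partners and oxygen sensing genes, 0 of 8 brighter members passed by limma, against 4 of 10 measured members with an unadjusted p under 0.05, 3 higher and 1 lower, and the median of the list was -0.10. Arnt, the partner of the alpha subunits, had the smallest p, at 7.64 ± 0.29 in failing and 6.90 ± 0.53 in control hearts. Its difference was 0.74 ± 0.24 (limma adjusted p = 0.206 over all and 0.0693 over the brighter probe sets). Over the brighter ones it was 0.0445 without control replicate 4, but 0.0573 to 0.147 without any other heart. The control mean of Arnt lay below the intensity limit of the brighter probe sets and its failing mean above it. Arnt thus entered the brighter fit only through its failing level, and its p values over the brighter probe sets depend on that filter. Of 40 measured hypoxia-induced genes outside the members, 29 (72.5%) had a positive estimate, against 46% of all genes, and the median was 0.29. An unadjusted p under 0.05 was found for 11 with a higher and 3 with a lower level in failing hearts. By limma 1 of 35 brighter ones rose and 1 fell. Lox, whose product cross-links collagen, averaged 10.63 ± 0.91 in failing and 9.07 ± 0.33 in control hearts (adjusted p = 0.033). Tfrc, the transferrin receptor of iron uptake, fell to 9.96 ± 0.97 in failing hearts, against 11.37 ± 0.35 in control hearts (adjusted p = 0.0473), although failing replicate 5 stood at 11.70, within the control range. The Lox call also held without failing replicate 1 or control replicate 5, but not when any of the remaining hearts was dropped (adjusted p of 0.0521 to 0.0812). The Tfrc call held in no further case (adjusted p from 0.0603 to 0.107).

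The wider VEGF and angiopoietin list had 1 gene higher and 1 lower among 16 brighter members of 21 measured (median of 0.08 over the measured members). Vegfd, which like Vegfc encodes a lymphatic growth factor, had 7.78, 8.63, 8.58, 9.06, 7.91 and 8.92 in failing hearts, against 7.19, 8.11, 7.34, 7.94, 7.15 and 7.48 in control hearts. It rose by 0.95 ± 0.26 (log2), 1.93-fold (limma adjusted p = 0.0465 over the brighter probe sets), with failing replicates 1 and 5 inside the control range. Esm1, the endothelial secreted gene endocan that VEGF-A induces, had 6.55, 6.89, 6.47, 6.54, 5.54 and 6.44 in failing hearts, against 7.70, 7.72, 6.97, 7.35, 7.50 and 7.98 in control hearts. Every failing heart lay below every control heart, a difference of -1.13 ± 0.23 (log2) with an adjusted p of 0.0273 over the brighter and 0.129 over all probe sets. All failing hearts lay below the limit of 6.94 and all control hearts above it, so Esm1 entered the brighter fit only through its control level. The Esm1 call was lost when failing replicate 3, 4 or 6, or else control replicate 1 or 6, was dropped (limma adjusted p of 0.0515 to 0.0636). The Vegfd call held without failing replicate 1 or 5 or control replicate 4 but in no further case (adjusted p of 0.0518 to 0.104). In the adrenomedullin system 0 of 5 brighter genes passed by limma, 1 of 6 measured having an unadjusted p under 0.05. It was Ramp2, which makes the receptor CALCRL specific for adrenomedullin, at 10.67 ± 0.26 in failing and 10.21 ± 0.17 in control hearts (limma adjusted p = 0.193 over all and 0.0612 over the brighter probe sets). Over the brighter ones it was 0.0175 without failing replicate 5 and 0.0425 without control replicate 4, but 0.0732 to 0.133 without any other heart.

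**Figure D4:**
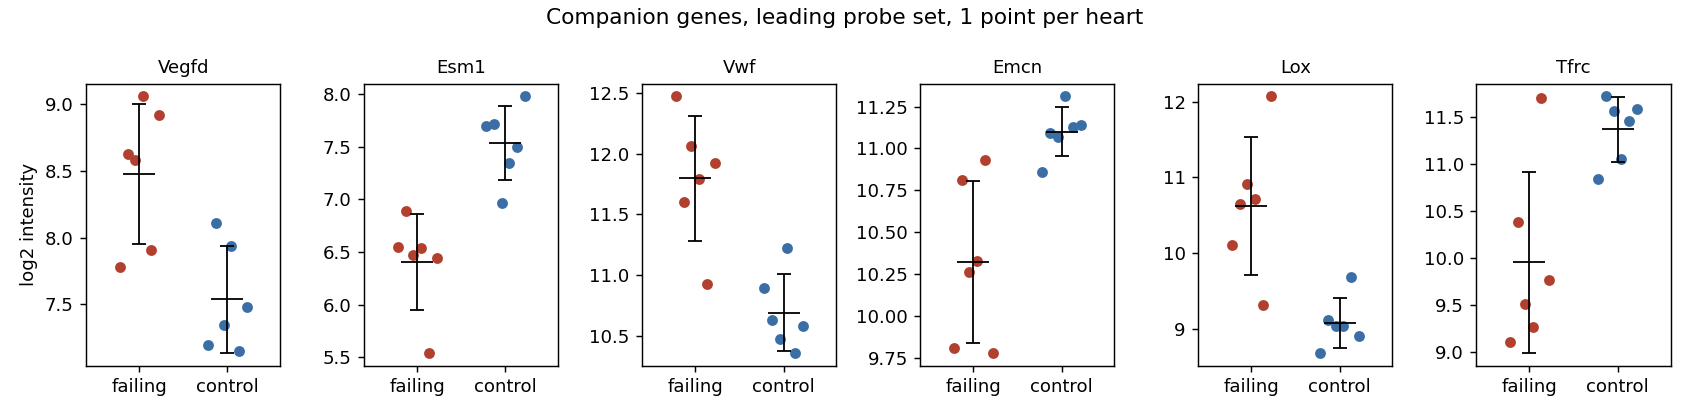
Log2 intensity of the leading probe sets of Vegfd, Esm1, Vwf, Emcn, Lox and Tfrc, with 1 point per heart (failing left, control right), the mean as a bar and the SD as whiskers. The groups are apart for Esm1. Failing replicate 5 lies within the control range for Tfrc (11.70), Vwf (10.93), Emcn (10.93) and Lox (9.31), and with failing replicate 1 for Vegfd.

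Levels of cell type markers are given beside those of the members. Of 14 measured endothelial markers 1 rose and 1 fell by limma among the brighter probe sets, with a median of 0.20 and summed intensities of 18514 to 25167 in failing and 16764 to 22269 in control hearts. Vwf, which encodes von Willebrand factor, rose to 11.79 ± 0.52 in failing hearts, against 10.69 ± 0.31 in control hearts (adjusted p = 0.0276). Emcn, a sialomucin of capillary and venous endothelium, fell to 10.32 ± 0.48 in failing hearts, against 11.10 ± 0.14 in control hearts (adjusted p = 0.0419). The Vwf call held without failing replicate 1, 2 or 5 or control replicate 4 but in no further case (adjusted p of 0.051 to 0.0696), and the Emcn call held without failing replicate 2 or 5 or control replicate 4 alone (otherwise 0.0635 to 0.0941). None of the endothelial markers was near the bottom of the scale, the dimmest being Nos3 at a mean of 8.36. Lymphatic markers had 0 calls by limma among 4 brighter genes and 1 of 5 with an unadjusted p under 0.05, Lyve1 (difference 0.73 ± 0.27, adjusted p = 0.251 over all and 0.0951 over the brighter probe sets). Over the brighter ones it was 0.0263 without control replicate 4 and 0.0472 without failing replicate 5, but 0.111 to 0.183 without any other heart. The summed intensities of the lymphatic markers were 5636 to 7501 in failing and 4518 to 7226 in control hearts. Their median log2 fold change was 0.08, with 3 of the 5 estimates positive and those of Prox1 (-0.26) and Ccl21 (-0.29) negative.

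Markers of other cell types were read in the same way. Macrophage markers had 3 of 10 called higher and 0 lower, with a median of 0.73 and summed intensities of 18325 to 40340 in failing and 12341 to 18680 in control hearts, control replicate 4 standing near the top of its group at 18572. The called ones were Mrc1 (1.03 ± 0.27), C1qb (1.09 ± 0.30) and Lyz2 (0.76 ± 0.20), with limma adjusted p of 0.0392, 0.0461 and 0.0423. Fibroblast markers had 2 of 10 called higher, Postn (1.31 ± 0.30, adjusted p = 0.029) and Dcn (0.50 ± 0.12, adjusted p = 0.0292), and summed intensities of 59587 to 128457 in failing and 49844 to 81758 in control hearts. Beyond the cases named above, C1qb and Lyz2 held without failing replicate 1, Dcn without failing replicate 1 or 2, and Postn without failing replicate 1 or 2 or control replicate 2. With other hearts left out the adjusted p of these 5 genes ran from 0.0502 for Postn to 0.105 for C1qb. Smooth muscle and pericyte markers had 0 of 10 called by limma, 6 having an unadjusted p under 0.05 and a positive estimate. The smallest p was that of Tagln, which encodes the smooth muscle protein transgelin. Tagln averaged 10.54 ± 0.66 in failing and 9.54 ± 0.39 in control hearts (limma adjusted p = 0.186 over all and 0.0565 over the brighter probe sets). In the brighter fit it passed if failing replicate 5 (adjusted p = 0.0334) or failing replicate 1 (0.0418) was dropped. Dropping any other heart left its adjusted p at 0.0557 to 0.121. Cardiomyocyte markers had 0 of 10 called, with summed intensities of 282577 to 423989 in failing and 270866 to 441523 in control hearts. Among them 1 had an unadjusted p under 0.05, Myh6 (-1.03 ± 0.35, limma adjusted p = 0.221 over all and 0.0774 over the brighter probe sets). Over the brighter ones it was 0.0191 without failing replicate 5 and 0.0222 without control replicate 4, but 0.109 to 0.152 without any other heart. Control replicate 4 had the lowest control sum for cardiomyocyte (270866), fibroblast (49844) and smooth muscle and pericyte markers (27372), and the highest for endothelial markers (22269). Its lymphatic sum (5767) lay between those of other control hearts. The part of any of these cell types in the differences of the members was not tested.

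**Figure D5:**
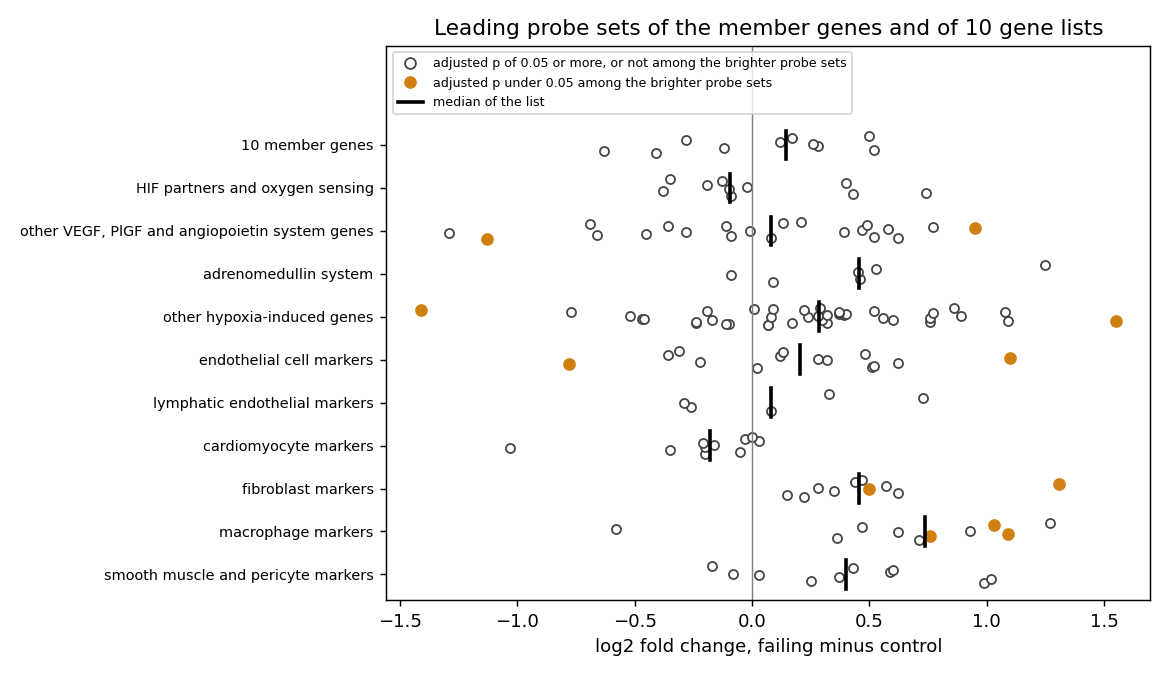
Log2 fold change, failing minus control, of the leading probe set of each gene in the 10 member genes and in 10 gene lists; filled points passed limma's adjusted p of 0.05 among the brighter probe sets, and black bars are medians. No member is filled, and the macrophage list has the highest median, 0.73.

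The genes most like 3 of the members in pattern were taken over the 12 arrays after each group's mean was removed, by Pearson's r among about 12530 brighter probe sets with a symbol. They are descriptive, being the highest of so many. For Vegfa they were Socs6 (r = 0.94), Rras2 (0.92) and Rasgrp3 (0.91). For Kdr they were Srrm1 (0.88), Faf1 (0.85) and Egln2 (0.85), the last another HIF prolyl hydroxylase. For Hif1a they were Plin2 (0.96), a lipid droplet coat protein, Heatr5a (0.90) and Wdpcp (0.90).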

How the data were processed

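Heart RNA of 6 failing and 6 control rats was hybridised to 12 arrays of 1 colour, grouped by sample title. The authors deposited intensity values on a linear scale (0.1 to 79913.6) for 31099 probe sets, and every array has a trimmed mean (2% off each end) of 500.19 to 500.23. The submitters' processing notes name RMA, which usually gives log2 values, so the summary method is unknown. A scaling to 1 level hides any shift shared by most genes, and dim values spread widely after log2. The number of arrays limits the precision, and no scan dates or detection calls were used.

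Log2 values without offset were computed for 31042 probe sets, 57 array controls being left out. The array annotation gave 20826 probe sets 1 symbol, and a check through gene identifiers renamed 0 of them. The comparison used limma 3.58.1 (R 4.3.3; lmFit, eBayes, two-sided, group only, Benjamini-Hochberg adjustment), over all probe sets and over the brighter ones, and SE and intervals are those of the fit over all. "Rose" and "fell" mean an adjusted p under 0.05 among the brighter probe sets. The fits were tested on simulated data. The members, the lists and the brighter fit were chosen with earlier results of these data known. Named genes are all members, and in each list the called genes with the smallest p (at most 3 higher and 3 lower), or else the gene with the smallest p, besides the dimmest marker of 2 lists. Alternatives covered offset, normalization, variance model, array weights, a rank test, an RNA quality covariate, replicate number and each heart. Replicate numbers were not taken as pairs of hearts.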

Additional observations from a re-analysis of the deposited data

Results flagged for a closer look

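Of the 30 groups of 6 hearts behind the 15 member probe sets, 3 had 1 heart far from the others, where chance flags about 1 in 20. For Vegfb, control replicate 4 stood at 10.44 (log2 intensity), below the next control heart at 11.47. The same heart was lowest for Adm, at 8.85 against 9.56 for the next control heart. For Hif1a, failing replicate 3 stood at 11.37, above the next failing heart at 11.05. Without that heart the Hif1a difference was 0.20 (log2), with a limma adjusted p of 0.23 over the brighter probe sets.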

How the results depend on the processing

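Of 230 recomputed values of the 10 leading probe sets, 224 kept their direction and their side of the threshold, 5 passed it and 1 turned, Epas1 at -0.01 with array weights. With array weights Vegfb (-0.77, limma adjusted p = 0.0128) and Vegfc (0.61, adjusted p = 0.0207) passed among the brighter probe sets, as did the dimmest Flt1 probe set (0.97, adjusted p = 0.033), so that 2 member probe sets were called higher and 1 lower, against 1203 higher and 1067 lower in all. Leaving out 1 heart gave 0 to 2 member probe sets higher and 0 to 1 lower there, and 20 to 1035 higher and 4 to 1048 lower among all the brighter ones. Over all probe sets it gave 0 to 120 higher and 0 to 40 lower, 120 and 40 without failing replicate 5, and the cause was not tested. Over all probe sets an offset of 32 gave 35 higher and 11 lower, and an intensity trend 380 and 186 (419 lower among the brighter ones), in each case with 0 members. Median centring left 136 lower among the brighter ones, and 74.4% of calls higher in place of 65.1%. A wider filter, at the 25th percentile, gave 0 higher and 0 lower by limma (4303 at an unadjusted p under 0.05), as did the exact rank-sum permutation test (3398 unadjusted), whose smallest p of 0.00216 limits it. Member probe sets that did not overlap were 1 after quantile normalization, 2 after median centring, and 3 to 5 without 1 heart, the 5 being without control replicate 4. Dropping a heart can only keep or raise that count, so it is no test of the groups being apart. With the replicate block, the brighter probe sets gave 222 higher and 59 lower and 0 members. Same-numbered hearts correlated from -0.06 to 0.232 in their deviations from group means, and 2 of 6 failing hearts correlated best with their own number, so the numbers were not taken as pairs. Taking 1 probe set per gene, an alternative chosen after seeing the data, gave 0 members too. Dim probe sets, such as the second one for Kdr, could show only very large differences.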
